A study of Homo sapiens with 12 samples.

Results

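Expression of 10 immediate early transcription factor genes was followed in cells of the K562 line and of its derivatives K562/SSedit-2 and K/VP.5. The genes were FOS, FOSB, FOSL1, FOSL2, JUN, JUNB, JUND, EGR1, IER2 and MAFF. They were taken by symbol from the 60671 genes of the deposited count table, and all 10 were among the 18626 genes with enough counts to be tested. The list is one of gene names and set no threshold on measured values.

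Immediate early genes are transcribed within minutes of a stimulus from factors that already sit in the cell, without new protein synthesis, and most of their mRNAs are short-lived. Growth factor signalling through ERK reaches the serum response factor SRF and its ELK partners at CArG boxes, and cAMP or stress signalling reaches CREB and ATF factors at cyclic AMP response elements (CREs). FOS and JUN family proteins pair through basic leucine zippers to form AP-1, which binds DNA and controls genes of growth and differentiation. EGR1 is a zinc finger factor, IER2 is a small nuclear regulator, and MAFF is a small MAF protein that lacks an activation domain of its own.

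K562 is an established human leukemia line with erythroid features. K/VP.5 is a clonal derivative of K562 selected by exposure to etoposide, a drug that traps topoisomerase IIα on DNA, and is resistant to it. K562/SSedit-2 is a clone of K562 in which CRISPR/Cas9 and a repair template were used to destroy the 5′ splice site between an exon of TOP2A (TOP2α) and the intron after it. By the study's assays an unedited copy of the gene remains in this clone. Total RNA of 4 replicates of each line was sequenced, with cells of all 3 lines kept in DMEM with 10% FBS and growing in mid-log phase, and no stimulus, serum step or drug at harvest is named in the labels. Each derived line is a single clone, so a difference from K562 is that of the clone. Replicates carry the numbers 1 to 4 within each line. Neither the labels nor the methods say whether they were separate cultures, or what libraries of the same number shared, so p-values measure the spread between these samples, which may be technical.

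Total counts ranged from 28981722 to 43648830 per library. In the smallest library 3 counts correspond to 0.102 CPM (the count of a gene scaled by normalized library size), which sets the lowest level that can be read. TOP2A, the edited gene, was at 402 ± 59.1 CPM in K562, 275 ± 7.50 CPM in K/VP.5, and 192 ± 16.0 CPM in the edited clone (SD, n = 4 each). The erythroid factor GATA1 was present at 245 to 440 CPM in all libraries. Among markers of other cell types, CDH5 of endothelium was listed at 0 in every library and CD3E of T cells, MS4A1 of B cells, CD14 of monocytes and NCAM1 of natural killer cells averaged under 0.3 CPM in each line. Others were present. The epithelial gene EPCAM was at 121 to 196 CPM in all lines, PECAM1 of endothelium and platelets averaged 24.8 CPM in K562, 0.286 CPM in K/VP.5 and 36.2 CPM in the edited clone, and the collagen genes COL1A1 and COL1A2 averaged 22.5 and 30.8 CPM in K/VP.5 and under 5 CPM in the other lines. K562 replicate 1 stood apart from the other K562 libraries, with a chi-square per degree of freedom of 53.5 to 56.4 in its count profile against them, where the other 15 pairs of replicates had 4.82 to 19.5. As RNA was measured in bulk, fewer cells that express a gene and less RNA of that gene per cell cannot be told apart.

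The sequences before the start sites of 3 genes are shown because FOS, EGR1 and JUNB were the genes that differed between libraries of different replicate numbers, described further on. They are the 250 bases before the RefSeq start on GRCh38.p14, 5′ to 3′ on the gene's strand, with capitals marking CArG boxes and the CRE core TGACG on either strand, where CGTCA is its reverse.
FOS (chr14:75278578-75278827, plus strand): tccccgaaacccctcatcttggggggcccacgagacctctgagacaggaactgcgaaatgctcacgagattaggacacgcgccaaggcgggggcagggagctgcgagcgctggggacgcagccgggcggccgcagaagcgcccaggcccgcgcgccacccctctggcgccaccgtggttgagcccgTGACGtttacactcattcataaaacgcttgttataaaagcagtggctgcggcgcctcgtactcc
EGR1 (chr5:138465229-138465478, plus strand): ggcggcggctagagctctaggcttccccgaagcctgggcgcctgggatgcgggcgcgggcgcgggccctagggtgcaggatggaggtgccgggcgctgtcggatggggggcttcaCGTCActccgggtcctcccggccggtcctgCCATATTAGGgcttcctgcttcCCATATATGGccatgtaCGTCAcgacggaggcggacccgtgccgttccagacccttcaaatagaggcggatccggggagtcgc
JUNB (chr19:12791236-12791485, plus strand): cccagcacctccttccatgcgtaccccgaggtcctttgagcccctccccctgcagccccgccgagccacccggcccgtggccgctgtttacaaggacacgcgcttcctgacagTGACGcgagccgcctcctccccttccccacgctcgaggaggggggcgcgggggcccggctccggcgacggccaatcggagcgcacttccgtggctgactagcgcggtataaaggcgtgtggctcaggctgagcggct

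RefSeq windows from 250 bases before to 50 bases after the start were held for 9 of the 10 genes, all but FOSL1. The core TGACG was present in all 9, and in 25% of the 27305 windows of all genes. The full CRE TGACGTCA, which contains this core on both strands, was in the windows of JUND and MAFF and in 1.98% of all windows. The AP-1 site TGANTCA was in that of FOSL2 and in 7.76% of all. The TATA box TATAAA was in those of FOS, FOSB and JUNB and in 12% of all. The GC box GGGCGG was in 7 of the 9 windows and in 44.6% of all, and the EGR site GCGNGGGCG was in that of EGR1 and in 9.28% of all. Both strands were searched for each motif. These matches describe letters only, and binding was not measured.

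CArG boxes, the sites of SRF, were in the window of EGR1 and in 1.29% of all windows. In longer windows, reaching 1000 bases before the start, they were found in FOS, FOSB and EGR1, which is 3 of 9 genes, and in 5.07% of the windows of all genes. EGR1 had 5 boxes, of which 2 are within its sequence above. The other 3 are given below with the single boxes of FOS and FOSB, each with 10 bases on either side, because these 3 genes of the group carry them. Distances are from the start site to the first base of the box, which is in capitals.
FOS site at -314 (chr14:75278504-75278533, plus strand): cacaggatgtCCATATTAGGacatctgcgt
FOSB site at -274 (chr19:45467712-45467741, plus strand): cggccgagctCCTTATATGGctaattgcgt
EGR1 site at -418 (chr5:138465051-138465080, plus strand): cccggaaatgCCATATAAGGagcaggaagg
EGR1 site at -380 (chr5:138465089-138465118, plus strand): ccggaacaacCCTTATTTGGgcagcacctt
EGR1 site at -364 (chr5:138465105-138465134, plus strand): ttgggcagcaCCTTATTTGGagtggcccga

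The 10 genes spanned a wide range of levels, compared here per kilobase of exon of the GENCODE annotation. In K562 cells, JUND had the highest level, at 212 ± 49.4 CPM per kilobase (SD, n = 4). EGR1 at 55.4 ± 14.0, IER2 at 49.9 ± 1.36 and JUNB at 41.8 ± 5.60 CPM per kilobase came next and did not differ from each other beyond the spread of EGR1. FOSL1 at 12.6 ± 0.722 and JUN at 12.3 ± 1.01 CPM per kilobase followed, again within each other's spread.

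The remaining genes were far lower in K562, with FOS at 1.59 ± 0.699, MAFF at 1.49 ± 0.299, FOSL2 at 0.441 ± 0.103 and FOSB at 0.309 ± 0.101 CPM per kilobase. In K/VP.5, IER2 at 64.1 ± 9.96 CPM per kilobase was above EGR1 at 53.5 ± 31.3, and JUNB was at 53.1 ± 14.3. In K562/SSedit-2, the order was that of K562 except that JUN, at 13.0 ± 1.26, was above FOSL1, at 12.3 ± 1.73 CPM per kilobase. Within the FOS family, FOSL1, a FOS relative without the transactivation domain of FOS, made up 84.5 ± 4.40% of the summed CPM per kilobase in K562, 83.5 ± 6.55% of it in K/VP.5 and 80.8 ± 6.57% of it in K562/SSedit-2 (SD, n = 4 each). FOS itself made up 10.5 ± 4.14%, 11.1 ± 6.29% and 13.9 ± 6.70% in the same order. Within the JUN family, JUND, the member that is expressed in most resting cells, held 79.3 ± 2.98%, 70.9 ± 4.45% and 75.2 ± 4.38%, and JUNB held 16.0 ± 2.01%, 23.7 ± 4.51% and 19.1 ± 3.65%. JUN, the best-known AP-1 subunit, held 4.76 ± 1.04%, 5.41 ± 0.207% and 5.76 ± 0.881%. Summed over the family, FOS genes reached 15.0 ± 0.930 CPM per kilobase in K562 and JUN genes 266 ± 53.5 CPM per kilobase.

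**Figure D1:**
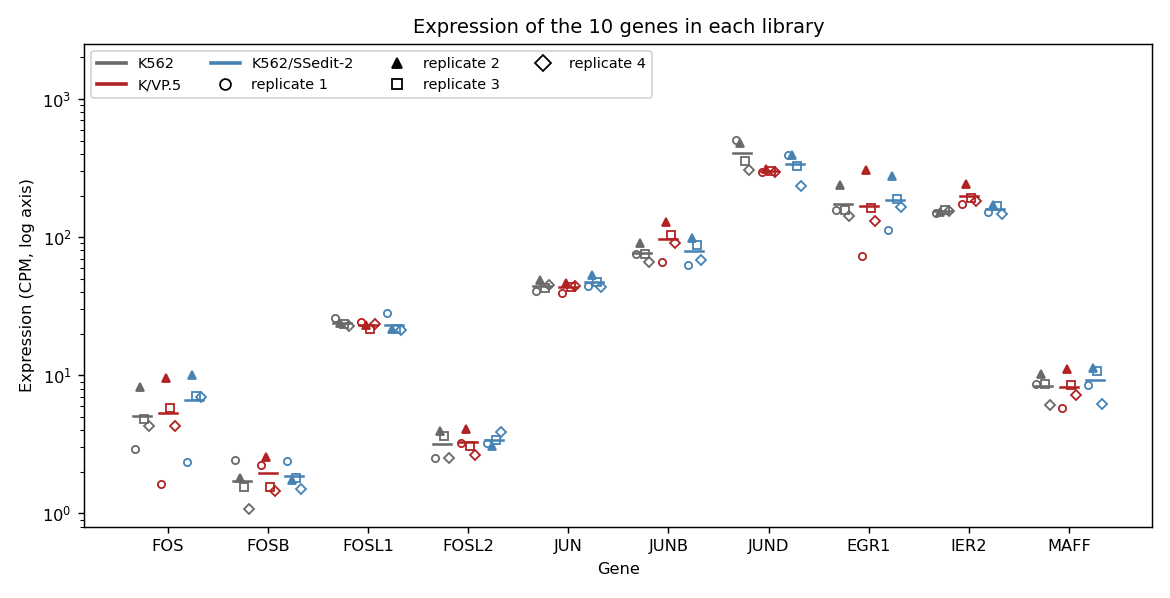
Normalized expression (CPM, log axis) of the 10 genes in each of the 12 libraries, with colour for the line, marker shape for the replicate number and a bar for the mean of each line. JUND lies between 236 and 501 CPM and FOSB between 1.07 and 2.55 CPM, and the filled triangles of replicate 2 are the highest of their line for FOS, JUN, JUNB, EGR1 and MAFF in all 3 lines.

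K/VP.5 was compared with K562 to ask what accompanies acquired resistance to etoposide. IER2 was higher in K/VP.5 and JUND was lower, both by less than 2-fold. JUNB had a similar difference to IER2 with a wider spread, and the other 7 genes, FOS and EGR1 among them, had log2 fold changes between -0.05 and 0.20 that did not pass the test.

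IER2 was at 148, 153, 158 and 155 CPM in K562 replicates 1 to 4 and at 174, 242, 190 and 183 CPM in K/VP.5 replicates 1 to 4. All K/VP.5 libraries lay above all K562 libraries, and replicate 2 was the highest of its line. The log2 fold change was 0.36 (1.29-fold), with a standard error of 0.091 and an adjusted p of 0.00368 (by edgeR's quasi-likelihood test, Benjamini-Hochberg adjusted).

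JUND was at 501, 477, 354 and 304 CPM in K562 and at 298, 313, 301 and 294 CPM in K/VP.5. The K/VP.5 libraries were tightly grouped and only replicate 4 of K562 reached down to their range, so the lines overlapped. The log2 fold change was -0.44, with a standard error of 0.16 and an adjusted p of 0.030 (by the same edgeR test). Without the libraries numbered 1 in every line, the change was -0.32 with an adjusted p of 0.11, and without those numbered 2 it was -0.38 with an adjusted p of 0.14, both by the same edgeR test. Without K562 replicate 1 alone, the library that stood apart, it was -0.35 with an adjusted p of 0.058, and that of IER2 was 0.32 with an adjusted p of 0.00695, by the same edgeR test.

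JUNB, an AP-1 subunit that often opposes JUN, was at 74.9, 90.5, 74.9 and 65.8 CPM in K562 and at 65.7, 128, 104 and 90.4 CPM in K/VP.5. Replicates 2 and 3 of K/VP.5 lay above all 4 K562 libraries, and replicates 1 and 4 did not. The log2 fold change was 0.34, with a standard error of 0.17 and an adjusted p of 0.12 (by edgeR's quasi-likelihood test, Benjamini-Hochberg adjusted), and single libraries moved it between 0.48 (adjusted p = 0.019) without K/VP.5 replicate 1 and 0.18 (adjusted p = 0.41) without K/VP.5 replicate 2. It also passed without K562 replicate 2 (0.42, adjusted p = 0.083 by the same edgeR test), without the libraries numbered 1 in every line (0.48, adjusted p = 0.00989), with upper-quartile factors (0.41, adjusted p = 0.066), with no filter on low counts (0.32, adjusted p = 0.00135) and with the 1-CPM filter (0.37, adjusted p = 0.097). With replicate number as a block, JUNB passed too, at 0.31 (standard error 0.097, adjusted p = 0.014 by the same edgeR test). In that fit 55.1% of all genes passed.

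With both a 2-fold change and a false discovery rate of 10% required, 0 of the 10 genes were called by edgeR, against 15.6% of all tested genes. At the same false discovery rate without a fold cutoff, 2 of the 10 were called, against 52.3% of all. IER2 was higher, as were 26.2% of all genes, and JUND was lower, as were 26.1% of all. The same 2 genes had an unadjusted p under 0.05, against 51.9% of all. DESeq2 and limma voom likewise called 0 at 2-fold. The replicates of the 2 lines did not overlap for 1 of the 10 genes, against 43.0% of all. The median log2 fold change of the 10 was 0.01, as was that of all tested genes. FOS had a log2 fold change of 0.08 with a 95% interval from -0.80 to 0.95, and EGR1 one of -0.05 with an interval from -0.70 to 0.59, both from the model with line as its only term. With replicate number as a block, FOS was at -0.021 (standard error 0.17) and EGR1 at -0.20 (standard error 0.16), and neither passed. For JUN, the interval ran from -0.20 to 0.13, and for FOSL1 from -0.22 to 0.14.

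K562/SSedit-2 was compared with K562 to ask what accompanies the edit of the splice site. In the model with line as its only term, none of the 10 genes passed the test. Between FOS, with a log2 fold change of 0.38, and JUND, with -0.28, the differences were small beside the spread of the replicates within lines. JUND passed with replicate number as a block and with no filter on low counts, as given below.

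FOS was at 2.91, 8.17, 4.79 and 4.33 CPM in K562 replicates 1 to 4 and at 2.37, 9.99, 7.07 and 6.98 CPM in K562/SSedit-2. In both lines replicate 1 was the lowest and replicate 2 the highest, and the ranges overlapped almost fully. Leaving out single libraries moved its log2 fold change between 0.12, without K562/SSedit-2 replicate 2, and 0.72, without K562 replicate 2. With line as the only term, the 95% interval of the log2 fold change of FOS ran from -0.49 to 1.25 (standard error 0.44, adjusted p = 0.68 by edgeR's quasi-likelihood test, Benjamini-Hochberg adjusted). With replicate number as a block, the log2 fold change of FOS was 0.34 (standard error 0.16, adjusted p = 0.21 by the same edgeR test), which did not pass.

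JUND was at 392, 390, 327 and 236 CPM in K562/SSedit-2, and replicate 4 was the lowest library of both lines. Each library was below the K562 library of the same number. Its log2 fold change of -0.28 had a standard error of 0.16 and an adjusted p of 0.31 by the same edgeR test. Fitted with replicate number as a block, it was -0.28 with a standard error of 0.10 and an adjusted p of 0.094, which made JUND the only one of the 10 past the 10% false discovery rate, against 16.4% of all genes in that fit. JUND also passed with no filter on low counts (adjusted p = 0.00342 by the same edgeR test). Without single libraries and without the block, JUND ran from -0.40 without K562 replicate 4 to -0.13 without K562/SSedit-2 replicate 4, and did not pass the test.

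With line as the only term, the counts were 0 of 10 at 2-fold and 10% false discovery rate, against 2.06% of all genes, and 0 of 10 without a fold cutoff, against 12.6%. None of the 10 had an unadjusted p under 0.05, against 22.7% of all, and DESeq2 and limma voom also called 0. The replicates of the 2 lines overlapped for each of the 10 genes, while 13.2% of all genes had no overlap. The median log2 fold change was 0.09 over the 10 and -0.01 over all tested genes. EGR1 had a 95% interval from -0.55 to 0.74, JUN one from -0.08 to 0.25 and IER2 one from -0.12 to 0.23.

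In K562/SSedit-2 compared with K/VP.5, 2 lines with less TOP2A than K562, IER2 was lower, and in the model with line as its only term no other of the 10 genes passed the test. IER2 was at 152, 172, 168 and 146 CPM in K562/SSedit-2, all below the K/VP.5 range of 174 to 242 CPM. The log2 fold change was -0.31, with a standard error of 0.091 and an adjusted p of 0.010 (by edgeR's quasi-likelihood test, Benjamini-Hochberg adjusted). Without K/VP.5 replicate 2, the highest IER2 library, it was -0.18 with an adjusted p of 0.067 by the same edgeR test.

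JUNB was at 62.8, 98.7, 87.8 and 68.7 CPM in K562/SSedit-2, and its range overlapped with that of K/VP.5, while each library was below the K/VP.5 library of the same number. The log2 fold change was -0.29, with a standard error of 0.17 and an adjusted p of 0.19 (by edgeR's quasi-likelihood test, Benjamini-Hochberg adjusted). Without K/VP.5 replicate 1 it was -0.41 (adjusted p = 0.042) and without K/VP.5 replicate 2 it was -0.11 (adjusted p = 0.64, both by the same edgeR test). It also passed without K562/SSedit-2 replicate 2 (-0.40, adjusted p = 0.081). With replicate number as a block, JUNB was at -0.28 (standard error 0.096, adjusted p = 0.026 by the same edgeR test) and passed. FOS, at 0.36 (adjusted p = 0.079), and IER2 passed in that fit as well, against 56.7% of all genes. Of the 10 genes, 0 were called at 2-fold by edgeR, DESeq2 or limma voom, against 15.8% of all genes by edgeR. With line as the only term, IER2 alone was called without a fold cutoff, against 54.0% of all genes and 27.8% for genes that were lower. In that model IER2 also had the only unadjusted p under 0.05, against 53.3%. The replicates did not overlap for 1 gene, IER2, against 47.4% of all. These 3 comparisons share lines, so they are not independent of each other.

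**Figure D2:**
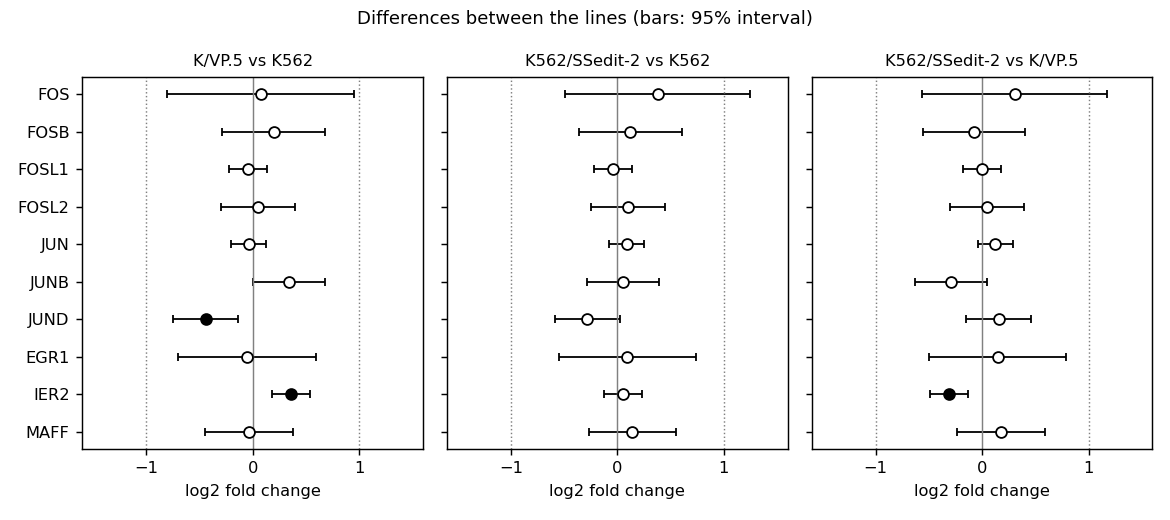
Log2 fold changes of the 10 genes in the 3 comparisons between lines, with bars for the 95% interval, dotted lines at a 2-fold change and filled points for an adjusted p under 0.1. The filled points are IER2 and JUND in K/VP.5 against K562 and IER2 in K562/SSedit-2 against K/VP.5, and all of them lie inside the dotted lines.

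Variation within the lines was larger than that between them for most of the 10 genes. FOS ranged 5.93-fold between the lowest and the highest of the 4 K/VP.5 libraries and EGR1 ranged 4.18-fold, and replicate number 2 was the highest of each line for both genes. The sum of squares of log2 CPM over the 12 libraries was divided into a part between lines, a part between replicate numbers and a remainder. For FOS, 88.0% lay between replicate numbers and 4.67% between lines, and for EGR1 the parts were 78.0% and 4.24%. Over all tested genes, the medians were 15.2% for the number and 53.8% for the line. FOSB, a FOS relative, had 75.9% between numbers, MAFF 74.3%, JUN 66.7%, FOSL1 65.9%, JUNB 62.9% and JUND 46.5%. FOSL2 had 30.9% and IER2 21.7%, and IER2 was the only one of the 10 whose part between lines, 61.6%, was above the median of all genes.

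**Figure D3:**
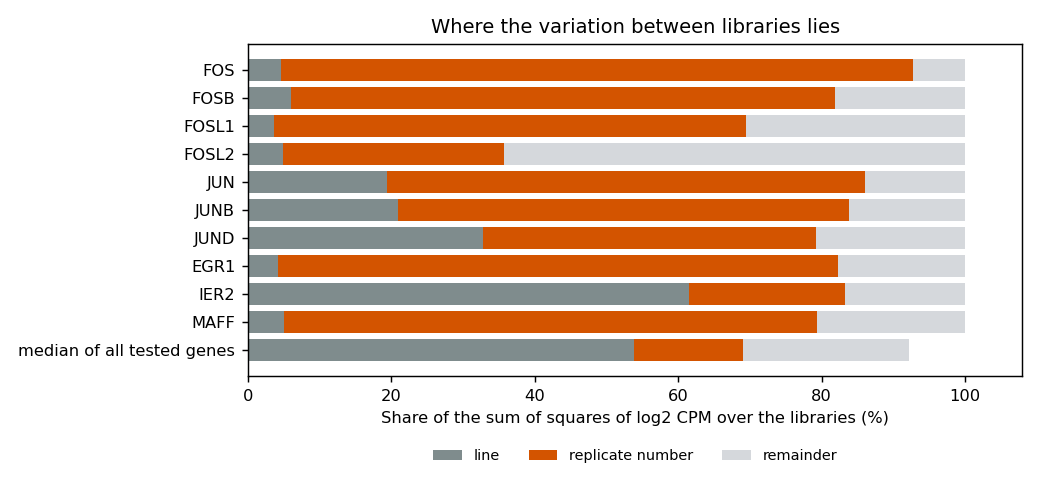
Shares of the sum of squares of log2 CPM over the 12 libraries that lie between lines, between replicate numbers and in the remainder (percent), for each of the 10 genes and as the median of each share over all tested genes. The share between replicate numbers runs from 21.7% for IER2 to 88.0% for FOS, and the median over all genes is 15.2%.

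FOS had a mean coefficient of variation within lines of 51.4%, where the 500 genes nearest to it in level had a median of 13.2%. EGR1 had 40.2% against 7.0% for its 500 neighbours in level, JUNB 20.4% against 7.29% and MAFF 24.4% against 11.3%. The coefficient of variation of FOSL1 was 8.11% against 9.08%, and that of JUN was 8.31% against 7.41%. FOS and EGR1 thus varied more than each of the 500 genes of like level, whereas FOSL1 and JUN were near the middle of theirs.

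Replicate number was then fitted together with the line in a single model of all 12 libraries. It asks whether libraries of the same number were high or low on average over the lines, so a pass does not require a difference in each line. Differences between numbers passed the test at 10% false discovery rate for 3 of the 10 genes, against 0.440% of all tested genes, which is 82 of 18626. The 3 were FOS (adjusted p = 0.00202), EGR1 (adjusted p = 0.040) and JUNB (adjusted p = 0.083), each by edgeR's quasi-likelihood test, Benjamini-Hochberg adjusted. The other 7 did not pass, with MAFF nearest at an adjusted p of 0.13 by the same edgeR test. This count rested on particular libraries. It was 0 without K562/SSedit-2, where FOS had an adjusted p of 0.11 by the same edgeR test, and 0 without the libraries numbered 2, against 0.0166% and 0.0537% of all genes. It was 1 without those numbered 4, against 0.118% of all genes, and 5 without those numbered 1 or without K/VP.5, against 0.797% and 3.65%. With single libraries left out it was 1, FOS, without K562 replicate 4 or K562/SSedit-2 replicate 1, against 0.0527% and 0.0682% of all genes. It was 5 without K/VP.5 replicate 1 or K/VP.5 replicate 4, against 2.87% and 1.01%, and without K562 replicate 1 it was 4, MAFF being added, against 0.452%.

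FOS was at 1.62, 9.63, 5.82 and 4.30 CPM in K/VP.5 replicates 1 to 4, the same order of libraries as in K562. Replicate 1 was the lowest and replicate 2 the highest of all 3 lines. Libraries numbered 2 exceeded the mean of the other numbers by 1.18 on the log2 scale (standard error 0.14, 2.26-fold, adjusted p = 0.00460 by edgeR's quasi-likelihood test, Benjamini-Hochberg adjusted). Libraries numbered 1 were below the mean of the others by a log2 difference of -1.50 (standard error 0.17, adjusted p = 0.00110 by the same edgeR test).

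EGR1 was at 157, 239, 158 and 141 CPM in K562 replicates 1 to 4, at 72.6, 304, 164 and 131 CPM in those of K/VP.5 and at 113, 277, 188 and 164 CPM in those of K562/SSedit-2. Replicate 2 stood above the rest in every line, while replicate 1 was the lowest in K/VP.5 and K562/SSedit-2 but not in K562. Libraries numbered 2 exceeded the mean of the others by 0.97 on the log2 scale (standard error 0.14, 1.96-fold, adjusted p = 0.024 by the same edgeR test), and those numbered 1 differed by -0.75 (standard error 0.16, adjusted p = 0.030 by the same edgeR test).

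JUNB, whose values are given above, was highest in replicate 2 of each line. Libraries numbered 2 differed from the others by 0.45 on the log2 scale (standard error 0.088, adjusted p = 0.26 by the same edgeR test), which did not pass, and those numbered 1 by -0.37 (standard error 0.093, adjusted p = 0.049), which did. FOSB was at 2.42, 1.82, 1.56 and 1.07 CPM in K562 replicates 1 to 4, at 2.22, 2.55, 1.56 and 1.46 CPM in those of K/VP.5 and at 2.40, 1.74, 1.81 and 1.49 CPM in those of K562/SSedit-2. In contrast to FOS, it was higher in libraries numbered 1, by 0.52 on the log2 scale (standard error 0.16, adjusted p = 0.074 by the same edgeR test), and its lowest library was number 4 in every line.

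In libraries numbered 1, 4 of the 10 genes thus differed from the others (3 lower, 1 higher), against 10.2% of all genes, of which 3.37% were lower and 6.85% higher. Without K562 replicate 1, FOS (-1.83, adjusted p = 3.30e-05), EGR1 (-1.10, adjusted p = 2.12e-04) and JUNB (-0.56, adjusted p = 0.00238) were lower in number 1 by the same edgeR test, against 0.420% of all genes in either direction. FOSB was then at 0.41 with an adjusted p of 0.50. So 3 of the 10 differed without this library. Without K562/SSedit-2 replicate 1 it was 2, FOS and EGR1, against 8.92% of all genes, and without K/VP.5 replicate 4 it was 6, FOSL1 and JUND being added, against 9.74%. In libraries numbered 2, 2 of the 10 differed, both higher, against 0.0322% of all genes, which is 6 genes. Beside FOS and EGR1, these 6 were VEGFA (0.59 on the log2 scale), DDIT4 (1.26), LBHD1 (0.60) and ENSG00000231881 (1.08), named after their values were seen. Without K562 replicate 1 the number higher was 4 of the 10 (FOS, EGR1, JUNB and MAFF), against 0.399% of all genes. Without K/VP.5 replicate 2 it was 0 by edgeR, with 6 of the 10 and 6.19% of all genes at an unadjusted p under 0.05, and 0% of all genes passed the adjusted threshold. The log2 differences of FOS and EGR1 were then 1.04 and 0.75. Without K562/SSedit-2 replicate 2, FOS passed alone of the 10 (1.25), against 0.0158% of all genes, and EGR1 had 1.01 with an adjusted p of 0.13 by the same edgeR test. In libraries numbered 3 and 4, 0 of the 10 differed at 10% false discovery rate by edgeR, against 0 and 0.0430% of all genes. At an unadjusted p under 0.05 the edgeR counts were 0 of the 10 in number 3, against 3.34% of all genes, and 4 in number 4, against 7.91%, where FOSB, JUNB, JUND and MAFF had log2 differences of -0.58, -0.21, -0.40 and -0.49. limma voom also called 0 in both. JUND and MAFF were lower in number 4 without K/VP.5 replicate 1 (adjusted p = 0.036 and 0.029 by the same edgeR test, against 1.25% of all genes) and without K/VP.5 replicate 4 (adjusted p = 0.040 and 0.072, against 0.979%).

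The same number was the highest library in all 3 lines for 6 of the 10 genes, against 11.4% of all genes. For FOS, JUN, JUNB, EGR1 and MAFF this was number 2, which was highest in all lines for 2.06% of all genes, and for FOSL1 it was number 1. The same number was lowest in all lines for 3 of the 10, number 1 for FOS and number 4 for FOSB and JUND, against 10.8% of all genes. Number 1 was lowest in all lines for 5.37% of all genes. MAFF was at 8.60, 10.1, 8.58 and 6.08 CPM in K562 replicates 1 to 4, at 5.80, 11.1, 8.54 and 7.22 CPM in those of K/VP.5 and at 8.48, 11.4, 10.8 and 6.21 CPM in those of K562/SSedit-2. JUN stayed between 39.1 and 53.6 CPM and FOSL1 between 21.4 and 28.1 CPM over all libraries, so their agreement in the highest number went with small differences. FOSL2, which lies between 2.53 and 4.10 CPM, and IER2 had no number in common.

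**Figure D4:**
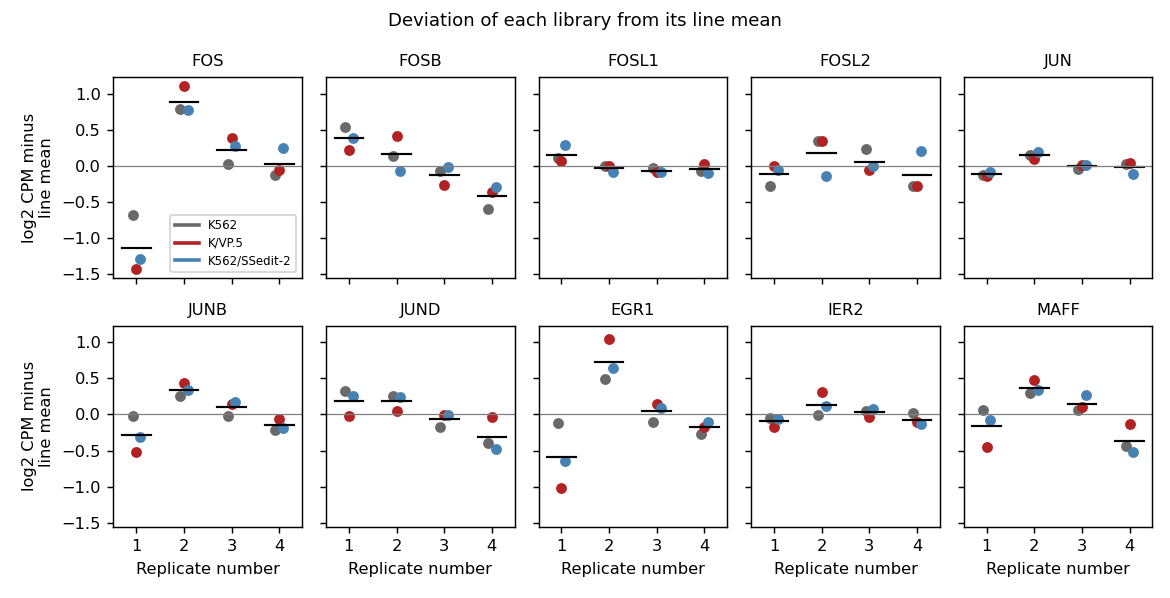
Log2 CPM of each library minus the mean of its line (y axis) by replicate number (x axis) for the 10 genes, with colour for the line and a bar for the mean of the 3 libraries of a number. The FOS points of number 1 lie below those of all other numbers, by up to 1.43 under the line mean, and the FOS and EGR1 points of number 2 lie above the line mean in all 3 lines.

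Heat shock genes, which also respond within minutes but through HSF1, differed between replicate numbers in 3 of 10 cases by the same joint test, against 0.440% of all tested genes. HSPA1A and HSPA1B, which encode the inducible HSP70 and are so alike that reads could be assigned to either, had log2 differences of -0.51 and -0.59 in libraries numbered 1 (adjusted p = 7.02e-04 and 3.44e-04 by the quasi-likelihood test of edgeR), and the HSP40 gene DNAJB1 had -0.43 (adjusted p = 0.00561). Without K562 replicate 1 these were -0.47, -0.57 and -0.47, each past the threshold. In libraries numbered 2, where FOS and EGR1 were highest, HSPA1A and HSPA1B had log2 differences of 0.03 each. Among 25 tested immediate early genes outside the 10, 0 differed between numbers at 10% false discovery rate by the joint test of edgeR or limma voom, with 14 at an unadjusted p under 0.05 by edgeR, where 7 of the 10 and 14.0% of all genes were. Their median log2 difference was 0.23 in number 2, against 0.25 for the 10 genes and 0.00 for all genes. In number 1, 4 of these 25 differed at 10% false discovery rate by edgeR (3 higher, 1 lower), against 10.2% of all genes. EGR3, a close relative of EGR1, was at 1.70, 11.1, 3.19 and 4.03 CPM in K/VP.5, highest in number 2. In K562 it was at 8.71, 5.73, 3.74 and 3.18 CPM, highest in number 1, the K562 library that stood apart. The corepressor NAB2, which binds EGR1 and restrains it, was higher in libraries numbered 1 by 0.42 on the log2 scale (adjusted p = 0.016) and differed by -0.45 in those numbered 4 (adjusted p = 0.086, both by the same edgeR test). VEGFA, a hypoxia and growth factor target, went from 109, 130 and 124 CPM in number 1 to 204, 298 and 216 CPM in number 2, in the order K562, K/VP.5, K562/SSedit-2.

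Libraries numbered 2 had the highest total count in K562 and K562/SSedit-2 but not in K/VP.5. The share of mitochondrial counts was 0.278%, 0.471% and 0.388% in number 2 of K562, then K/VP.5, then K562/SSedit-2. It was the highest share of the line in K/VP.5 and K562/SSedit-2 and the lowest in K562, and shares of all libraries ran from 0.278% to 0.700%. The highest mitochondrial share was that of K562 replicate 1. PECAM1, an endothelial and platelet gene, was higher in libraries numbered 1 (log2 difference 0.58, adjusted p = 0.016 by the same edgeR test), 1 of the 5 tested markers of other cell types, but at 0.38 with an adjusted p of 0.24 without K562 replicate 1. The part of any of these in the differences between numbers was not tested.

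Other genes of the pathway were examined by list to place the 10 among the genes that share their signals. In K/VP.5 compared with K562, 6 of 25 tested immediate early genes outside the 10 were called at 2-fold and 10% false discovery rate, against 15.6% of all tested genes. Higher were the nuclear receptor NR4A1 (log2 fold change 2.11), the stress gene GADD45B (1.47), the Krüppel-like factor KLF4 (1.32) and the kinase SGK1 (1.02), and lower were the chemokine CXCL2 (-1.74) and the GTPase gene RHOB (-1.18). NR4A1 was at 3.79, 2.39, 1.48 and 1.92 CPM in K562 and at 7.50, 14.3, 9.35 and 10.2 CPM in K/VP.5, without overlap. Whether this list differed from the 10 genes was not tested.

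ERK feedback genes went in both directions as well, with 4 of 13 tested genes called in K/VP.5 compared with K562, against the same 15.6% of all. The cyclin gene CCND1 fell from 24.4 to 0.889 CPM (log2 fold change -4.76) and SPRY4, an inhibitor of receptor signalling, fell from 79.7 to 37.3 CPM (-1.09). SPRY1 of the same family had 0, 0, 0 and 1 counts in K562 replicates 1 to 4 and 134, 130, 118 and 130 counts in K/VP.5. The ERK phosphatase gene DUSP4 had 9, 5, 2 and 1 counts in K562 and 48, 54, 28 and 38 counts in K/VP.5. Of 19 tested genes of the MAPK cascade, edgeR called 0 at 2-fold, with 10 at an unadjusted p under 0.05, and of 8 genes that restrain immediate early mRNAs or EGR1 it called 0, with 1 at that p, where 51.9% of all genes were. limma voom also called 0 in both lists. Of 19 activators of immediate early transcription, RPS6KA5, which encodes the kinase MSK1 of histone H3 and CREB, was lower (-1.41).

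Among 20 tested bZIP partners and competitors of AP-1, MAF (3.41), BACH2 (2.05), BATF3 (1.18) and MAFK (1.12), a small MAF protein like MAFF, were higher in K/VP.5 than in K562 and BATF2 (-1.19) was lower. Among 16 tested genes known as AP-1 or EGR1 targets, 2 were higher and 6 lower, where 8.98% of all tested genes were higher and 6.66% lower at the same cutoffs. LIF (5.62) and PDGFA (4.26), which encode secreted factors, were the higher ones, and PLAU (-2.60), CXCL8 (-2.37) and PDGFB (-1.50) were lower, as were CCL2, CD44 and ITGAX, all under 1 CPM in both lines. Without K562 replicate 2, CD44 went from -1.87 to -1.11 (adjusted p = 0.12 by the same edgeR test). The cochaperone BAG3 (-1.03) was the only heat shock gene called. COL1A1 and COL1A2, collagen genes on the list of markers of other cell types, were at 22.5 and 30.8 CPM in K/VP.5 and at 2.59 and 4.64 CPM in K562, and PECAM1 was at 0.286 and 24.8 CPM. Their part in the differences of the lists was not tested. Of the genes named for K/VP.5, SGK1 (0.85 without K562 replicate 3), SPRY4, MAFK and ITGAX (-0.93, 0.97 and -0.96 without K562 replicate 1) and BAG3 (-0.97 without K/VP.5 replicate 1) were just short of 2-fold when a single library was left out.

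In K562/SSedit-2 compared with K562, 4 of the 120 tested genes of these 7 signalling, partner and target lists were called, which is 3.33% beside 2.06% of all tested genes. IER5L, an immediate early gene related to IER2, was lower (log2 fold change -1.01, adjusted p = 0.042 by the quasi-likelihood test of edgeR), and the fit with numbers as blocks gave -0.97 (adjusted p = 0.019), short of 2-fold. Without K562 replicate 1, which had the highest IER5L level at 7.07 CPM, its log2 fold change was -0.61 (adjusted p = 0.064 by the same edgeR test), and it was also short of 2-fold without K562/SSedit-2 replicate 3 (-0.91) or replicate 4 (-0.90, adjusted p = 0.12). PHLDA1 (1.01), an ERK-induced gene, and BACH2 (1.28), a repressor that pairs with small MAF proteins, were higher, and the protease gene PLAU (-1.25) was lower. PHLDA1 fell short of 2-fold, at 0.83 to 0.94, without K562 replicate 3 or 4 or K562/SSedit-2 replicate 1. With the block, the bZIP factor gene JDP2, a repressor of AP-1, was called too (-1.31, adjusted p = 0.088 by the same edgeR test), at under 1 CPM. In K562/SSedit-2 compared with K/VP.5, 5 of 25 immediate early genes, 3 of 13 ERK feedback genes, 7 of 20 bZIP genes, 6 of 16 target genes, 1 of 19 activators, 0 of 19 MAPK cascade genes and 0 of 8 restraint genes were called by edgeR. limma voom also called 0 in the MAPK and restraint lists, which had 12 and 2 genes at an unadjusted p under 0.05 by edgeR, where 53.3% of all genes were. Over the 7 lists this was 18.3% of 120 genes, against 15.8% of all tested genes. Called genes included NR4A1 (-1.82), RHOB (1.69), CCND1 (5.55), MAF (-3.95), ATF5 (-1.36), PDGFA (-3.64) and CXCL8 (3.05).

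For the 3 genes with the largest difference between lines, JUND, FOS and IER2, the genes with the most similar profile over the 12 libraries were sought among 10234 genes of at least 5 CPM. The closest to JUND was BBLN (Pearson r = 0.967 of log2 CPM), followed by MRPL46 (0.957) and PGLS (0.946). FOS was closest to BCAN (0.919), ENSG00000231881 (0.917) and ENSG00000284669 (0.908), and IER2 to FDPS (0.945), CAMSAP1 (0.940) and RUSC1-AS1 (0.935). The libraries share line and replicate number, so these values describe likeness only.

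FOS lies on chromosome 14 from 75278826 to 75282230 (GRCh38), EGR1 on chromosome 5 from 138465479 to 138469303, and JUN on chromosome 1 from 58776845 to 58784048. FOSB, JUNB, JUND and IER2 are all on chromosome 19, where the median log2 fold change of tested genes in K/VP.5 compared with K562 was 0.09 on the short arm and 0.10 on the long arm. JUNB lies from 12791486 to 12793315 and IER2 from 13150411 to 13154911, both on the plus strand, and JUND from 18279694 to 18281622 on the minus strand. The 10 tested genes nearest to IER2 had a median of -0.12 in the same comparison and those nearest to JUND one of 0.00. The annotation has genes on the opposite strand that overlap FOSB (ERCC1), JUNB (HOOK2), MAFF (PLA2G6) and FOSL2 (FOSL2-AS1). It also has 2 genes without a symbol on the opposite strand of IER2, both listed at 0 counts in every library. As the strand setting of the counting is not given in the sources used here, the counts of these 5 genes are uncertain to that extent.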

How the data were processed

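The authors mapped 150-bp paired-end reads of total RNA to GRCh38 with HISAT2 and deposited, for 60671 Ensembl genes, the whole counts that featureCounts assigned to each gene, without normalization. The annotation release, the strand setting and how multi-mapping reads were counted are not given in the sources used here. Symbols, positions and exon lengths were taken from GENCODE 44, in which 60401 of the IDs were found, and sequences before start sites from RefSeq (GRCh38.p14). The 27305 windows were checked against the genome and all were identical to it.

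Genes were kept by filterByExpr of edgeR (minimum count 10, 18626 genes), counts were scaled by the TMM method, and all 12 libraries were fitted in a single model with line as the only term (edgeR 4.0.16 in R 4.3.3, quasi-likelihood test, Benjamini-Hochberg adjustment over all tested genes). A call needed a 2-fold change and an adjusted p under 0.1. Samples were grouped by the line in their labels. A second model, added after the data were seen, had line and replicate number as terms. Log2 CPM used a prior count of 2, and 95% intervals are 1.96 standard errors to each side. No pair of replicates agreed within sampling noise (chi-square per degree of freedom 4.82 to 56.4 over 18 pairs, 53.5 or more in the 3 pairs with K562 replicate 1). The model was tested on simulated data.

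Libraries of the same number were treated as pairs between K562 and K562/SSedit-2. Their deviations from the line means correlated across genes by 0.292, 0.141, 0.252 and 0.135 for numbers 1 to 4. What the libraries of a number shared is not given. The pairing comes from the numbers in the labels, and that comparison was also fitted with the number as a block.

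The genes and the pathway lists were chosen with earlier results of these data known. Named in the text are all 10 genes and, from each other list, up to 4 called genes with the largest change and a mean of at least 1 CPM in either line. Genes named beyond these were chosen after their values were seen. A marker gene of another cell type is not reported here. Alternatives were the size factors of DESeq2 and upper-quartile factors, the Wald test of DESeq2 1.42.0, limma 3.58.1 with voom, no filter, at least 1 CPM in 4 samples, only the 2 lines compared, an adjusted p under 0.05, the replicate block, and leaving out each library or all libraries of a number.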

Additional observations from a re-analysis of the deposited data

Results flagged for a closer look

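In K562 cells, EGR1 of replicate 2 stood apart from the other 3 libraries, at 239 CPM where the others were at 141 to 158 CPM. In K562/SSedit-2 cells, FOSL1 of replicate 1 stood apart, at 28.1 CPM where the others were at 21.4 to 21.7 CPM. The gap to the nearest library exceeded Dixon's limit in these 2 of the 30 sets of 4 libraries examined, where chance gives about 1 in 20. The EGR1 library is of replicate number 2, which had the highest EGR1 level in each line, and the FOSL1 library is of number 1, which had the highest FOSL1 level in each line.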

How the results depend on the processing

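Over 630 alternative values of the 30 log2 fold changes of the 10 genes, 559 kept direction and side of the threshold, 18 passed it newly, 2 lost it and 51 changed sign, none of them a called value. The 2 losses were those of JUND in K/VP.5 without the libraries numbered 1 or 2. Between K/VP.5 and K562, the sign turned with upper-quartile factors for FOSL1 (0.030), JUN (0.030), EGR1 (0.018) and MAFF (0.037), with limma voom for FOS (-0.12), with the replicate block for FOS (-0.021), without the libraries numbered 1 for FOSL2 (-0.029), EGR1 (0.15) and MAFF (0.12), and without those numbered 2 and 3 for FOS (-0.046 and -0.012). Between K562/SSedit-2 and K562, it turned without the libraries numbered 4 for FOSL2 (-0.067) and without those numbered 3 for JUNB (-0.0022). Between K562/SSedit-2 and K/VP.5, where FOSL1 was at 0.00, it was -0.040 with upper-quartile factors, -0.0069 with limma voom, -0.0028 with no filter, -0.0076 with the 1-CPM filter, -0.0056 with the replicate block and -0.082 without the libraries numbered 1, and the sign turned without those numbered 2 for FOSB (0.11) and without those numbered 4 for FOSL2 (-0.11). Leaving out single libraries gave, for K/VP.5 against K562, -0.39 to 0.39 for FOS, -0.076 to 0.16 for FOSL2, -0.51 to 0.19 for EGR1 and -0.22 to 0.091 for MAFF. It gave, for K562/SSedit-2 against K562, -0.049 to 0.33 for FOSB, -0.14 to 0.0096 for FOSL1, -0.050 to 0.15 for JUNB and -0.15 to 0.29 for EGR1, and against K/VP.5 -0.20 to 0.10 for FOSB, -0.083 to 0.052 for FOSL1, -0.029 to 0.19 for FOSL2 and -0.10 to 0.62 for EGR1. The number of the 10 genes with an adjusted p under 0.1 between K/VP.5 and K562 was 2 in the main fit, beside 52.3% of all genes. It was 1 without the libraries numbered 2 and 2 to 3 without single libraries. Between K562/SSedit-2 and K562 it was 0 in the main fit, beside 12.6% of all genes. It was 1, JUND, with no filter and 1, again JUND, with the replicate block (16.4% of all genes). Between K562/SSedit-2 and K/VP.5 it was 2 with no filter, 3 with the replicate block (IER2, JUNB at -0.28 with adjusted p = 0.026, and FOS at 0.36 with adjusted p = 0.079, from edgeR, beside 56.7% of all genes), 2 without the libraries numbered 1, 2 without those numbered 4, and 1 to 2 without single libraries. The main fit of that comparison had 1, beside 54.0% of all genes. Shares of all genes are not given here for the fits with no filter or without libraries. The block also added JUNB (adjusted p = 0.014 from edgeR) between K/VP.5 and K562, making 3 of the 10 beside 55.1% of all genes. Beside these calls and that of JUND between K562/SSedit-2 and K562, it changed none among the 10 genes. Deviations of same-numbered libraries correlated by 0.269, 0.043, -0.003 and 0.117 between K562 and K/VP.5 and by 0.161, 0.089, -0.026 and -0.095 between K562/SSedit-2 and K/VP.5, so these comparisons did not meet the criterion that every pair exceed 0.1. The correlations are over 18626 genes, so they cannot decide whether the number matters for the 10 genes. The number of genes that differed by replicate number was 5 without K/VP.5, 0 without K562/SSedit-2, 5, 0 and 1 without the libraries numbered 1, 2 and 4, 1 to 5 without single libraries, and 2 to 4 in the other alternatives. With the 1-CPM filter, 1923 in place of 2914 of all genes were called for K/VP.5 and 246 in place of 384 for K562/SSedit-2 against K562, fewer genes being tested. The cause of the other changes was not tested. FOSB and FOSL2, at 1.07 to 4.10 CPM, had the fewest reads of the 10 genes, which limits their precision.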
